A study of Rattus norvegicus with 9 samples.

Results

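Leptin (Lep) and 8 other adipokine genes (Adipoq, Retn, Cfd, Angptl8, Angptl4, Rbp4, Nampt and Apln) were followed through 9 mRNA-seq libraries of rat bone, as 9 of the 23026 genes in the count and FPKM tables. They are known adipokines, taken by gene symbol with earlier results of these libraries known. Lep was also a hub gene of the study, chosen by its measured log2 fold change (log2FC) in these same libraries, so its values are given as a description without a test. The groups were Sham, OVX and OVX-AS-IV-High (called the AS-IV group after this), with 3 libraries each. All animals were female Sprague–Dawley rats, 8 weeks old at purchase. Sham rats lost only a matched amount of fat from beside the ovary, and the other 2 groups had both ovaries removed. Gavage started 6 weeks after surgery and lasted 8 weeks. Rats of the AS-IV group received astragaloside IV (a saponin of Astragalus root) at 80 mg/kg, which the paper states was prepared in 1% CMC-Na. Sham and OVX rats received this vehicle without the drug. The labels give CMC-Na of 1%, 2% and 3% for Sham replicates 1, 2 and 3 and of 1% for OVX, and the 3 Sham libraries were kept as a single group. Ovariectomy was thus common to the OVX and AS-IV groups, and these libraries hold no AS-IV animal with ovaries.

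Adipokines are proteins that fat tissue secretes. Leptin signals the size of the fat stores through its receptor Lepr and JAK–STAT signalling, and both the hormone and marrow fat are linked to bone turnover. Adiponectin (Adipoq) and resistin (Retn) act on insulin sensitivity, adipsin (Cfd) is the serine protease that starts the alternative complement pathway, and Angptl8 and Angptl4 hold back lipoprotein lipase, the enzyme that frees fatty acids from circulating triglyceride. Rbp4 carries retinol, Nampt makes the NAD precursor nicotinamide mononucleotide inside cells and also circulates as visfatin, and apelin (Apln) signals through the receptor Aplnr. Marrow holds its own adipocytes, and their volume grows after ovariectomy.

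In bone, Lep and the adipocyte hormones Adipoq, Retn and Angptl8 stood higher in every ovariectomized library than in any Sham library, with or without AS-IV. Adipoq, Retn and Angptl8 were differentially expressed genes (DEGs, which by the thresholds of the study have an unadjusted p below 0.05 and an absolute log2FC above 1) in both comparisons with Sham. Cfd, Angptl4, Nampt and Apln showed overlapping groups. The mean of Lep was lower with AS-IV than in OVX, but the ranges of these groups overlapped and a single OVX library carried most of the difference. Of the 8 members other than Lep, 0 were DEGs between AS-IV and OVX, where 0.83% of all genes were, so that count says nothing particular to the members.

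The promoter windows of Lep and of the 3 adipokines that were DEGs are shown here because these genes separated the same libraries. Each run holds the 250 bases before and the 50 after the annotated start in RefSeq (assembly GRCr8, not the mRatBN7.2 build of the deposited tables), 5′ to 3′ along the gene. Capitals mark matches on either strand to TTGCNNAA or GCAAT, a full and a shorter form of the site read by C/EBP factors, which drive adipocyte genes.
Lep, chr4:58626288-58626587, plus strand: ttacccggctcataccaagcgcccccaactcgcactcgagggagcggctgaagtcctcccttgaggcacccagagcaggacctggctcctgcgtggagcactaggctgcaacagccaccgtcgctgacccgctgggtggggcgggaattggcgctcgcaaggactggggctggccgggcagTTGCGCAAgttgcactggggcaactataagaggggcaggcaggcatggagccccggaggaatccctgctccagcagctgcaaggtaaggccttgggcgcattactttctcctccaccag
Angptl8, chr8:28652305-28652604, plus strand: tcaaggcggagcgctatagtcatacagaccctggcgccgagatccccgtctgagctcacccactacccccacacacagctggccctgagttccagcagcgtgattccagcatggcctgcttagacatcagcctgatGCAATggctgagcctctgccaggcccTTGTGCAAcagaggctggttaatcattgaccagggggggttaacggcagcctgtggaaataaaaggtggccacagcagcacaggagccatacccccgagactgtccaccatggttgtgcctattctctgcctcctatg
Retn, chr12:6508524-6508823, plus strand: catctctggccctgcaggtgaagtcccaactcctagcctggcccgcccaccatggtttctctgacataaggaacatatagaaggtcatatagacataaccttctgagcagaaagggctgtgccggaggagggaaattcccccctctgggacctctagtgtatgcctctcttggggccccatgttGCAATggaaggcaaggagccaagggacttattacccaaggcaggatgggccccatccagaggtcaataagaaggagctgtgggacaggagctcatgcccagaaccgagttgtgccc
Adipoq, chr11:91240120-91240419, minus strand: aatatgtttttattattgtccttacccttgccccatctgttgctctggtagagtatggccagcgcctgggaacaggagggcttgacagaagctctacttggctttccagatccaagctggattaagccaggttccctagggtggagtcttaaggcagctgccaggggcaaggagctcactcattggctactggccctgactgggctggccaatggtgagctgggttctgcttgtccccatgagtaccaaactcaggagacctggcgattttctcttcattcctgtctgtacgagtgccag

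In Lep the full form was the palindrome TTGCGCAA, from base -69 to base -62 before the start, so it reads the same on both strands, and a TATAA box lay at bases -45 to -41. The Angptl8 window held GCAAT at bases -114 to -110 and TTGTGCAA, a match on the opposite strand, at bases -88 to -81. Retn had GCAAT at bases -66 to -62 and no full form. The Adipoq window had neither form and is therefore printed without capitals. A RefSeq window was found for 8 of the 9 members, Nampt being the exception. The full form occurred in 3 of the 8 (Lep, Angptl8 and Rbp4) and in 10.6% of 33469 rat promoter windows of the same length. GCAAT occurred in 4 of the 8 (Angptl8, Retn, Cfd and Angptl4) and in 26.8% of all windows. No match to one form overlapped a match to the other in the runs printed. A TATAA box was found in 3 of the 8 and in 26.2% of all windows, and AGGTCA, the half-site of nuclear receptors such as PPARγ, in 1 of the 8 (Retn) and in 16.2%. These are matches of letters in a window and carry no information on binding in bone.

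Lep was a low-level transcript in this tissue. Levels in CPM (the reads of a gene scaled to the TMM-normalized library size) were 1.24, 2.14 and 1.94 in Sham replicates 1 to 3, or 45, 73 and 69 reads. OVX replicates 1, 2 and 3 had 6.49, 19.4 and 5.51 CPM, or 238, 734 and 203 reads. In the AS-IV group the values were 3.85, 5.28 and 6.27 CPM, or 140, 195 and 228 reads. Every ovariectomized library lay above every Sham library. The AS-IV range ran into the OVX range from below, since replicate 3 of AS-IV exceeded replicate 3 of OVX.

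Mean ± SD (n = 3) of Lep was 1.77 ± 0.476 CPM in Sham, 10.4 ± 7.73 in OVX and 5.13 ± 1.21 in AS-IV. The fitted log2FC was 2.56 ± 0.493 (SE) in OVX vs. Sham, a 5.89-fold higher level. It was 1.53 ± 0.482 in AS-IV vs. Sham, or 2.89-fold. With the mean log2 level of 20 adipocyte markers as a covariate it was 1.11 in OVX vs. Sham and 0.04 in AS-IV vs. Sham, a fit in which group and marker level cannot be told apart. Between the treated and untreated ovariectomized groups it was -1.02 ± 0.464. OVX replicate 2 alone held more Lep reads than the other 2 OVX libraries together. Without this library the log2FC was 1.76 in OVX vs. Sham and -0.23 in AS-IV vs. OVX.

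**Figure D1:**
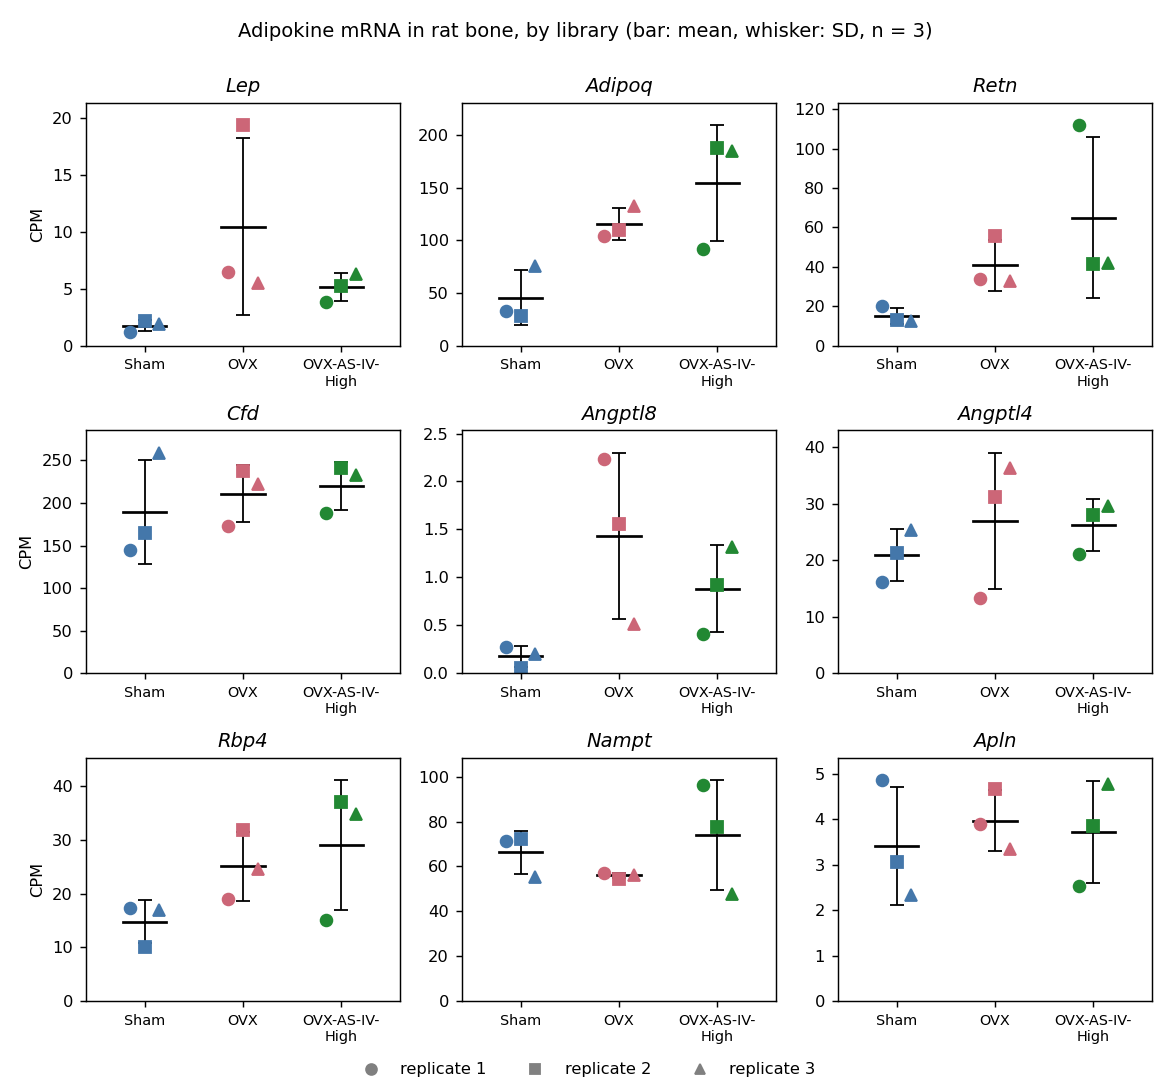
Level of each of the 9 adipokine genes (y axis, CPM, from 0) in Sham, OVX and AS-IV (x axis). Symbols are single libraries (circle, square and triangle for replicates 1, 2 and 3), the bar is the mean and the whisker the SD of 3 libraries; Lep reached 19.4 CPM in OVX replicate 2 and Retn 112.0 CPM in AS-IV replicate 1.

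Adiponectin, which mature adipocytes make almost alone, followed the same split between Sham and ovariectomized rats. Adipoq had 32.6, 28.4 and 75.3 CPM for Sham, 103.8, 110.1 and 132.5 for OVX and, with AS-IV, 91.3, 187.7 and 184.7. The highest Sham value, in replicate 3, was below the lowest ovariectomized value. Group means ± SD (n = 3) were 45.4 ± 26.0, 115.5 ± 15.1 and 154.6 ± 54.8 CPM. With edgeR's quasi-likelihood test, log2FC was 1.34 ± 0.385 in OVX vs. Sham (Benjamini-Hochberg adjusted p = 0.167 over 16874 genes). In AS-IV vs. Sham it was 1.77 ± 0.390 (edgeR, adjusted p = 0.107). In AS-IV vs. OVX it was 0.42 ± 0.378 (edgeR, adjusted p = 0.942), and the ranges overlapped.

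Resistin, a hormone that rodent fat cells secrete, was also higher after ovariectomy. Retn stood at 20.0, 13.2 and 12.5 CPM for Sham, at 34.1, 55.8 and 32.6 for OVX and, with AS-IV, at 112.0, 41.4 and 41.8. Both ovariectomized groups were wholly above Sham, and AS-IV replicate 1 had the highest level of all 9 libraries. The same library also had the highest Nampt of all 9. For Lep, Adipoq, Cfd, Angptl8, Angptl4, Rbp4 and Apln it was the lowest of its group. The log2FC of Retn was 1.42 ± 0.409 in OVX vs. Sham (edgeR, adjusted p = 0.167) and 2.09 ± 0.416 in AS-IV vs. Sham (adjusted p = 0.1). In AS-IV vs. OVX it was 0.67 ± 0.399 (edgeR, adjusted p = 0.882), and 0.02 without replicate 1 of AS-IV. Without that library the value against Sham was 1.45.

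Adipsin was the most abundant member and was a DEG in no comparison. Cfd measured 144.9, 164.4 and 259.1 CPM for Sham, 173.1, 237.2 and 221.7 for OVX and, with AS-IV, 188.1, 240.5 and 232.5. Its highest value of all came from a Sham library, replicate 3. The log2FC of 0.15 ± 0.217 in OVX vs. Sham was smaller than its SE (edgeR, adjusted p = 0.735), as was 0.06 ± 0.217 in AS-IV vs. OVX.

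Of the lipoprotein lipase inhibitors, Angptl8 differed between Sham and ovariectomized rats and Angptl4 did not pass the test. Angptl8, an insulin-induced product of fat and liver, was close to the limit of detection in Sham, with 10, 2 and 7 reads. OVX libraries held 82, 59 and 19 reads, and AS-IV libraries 15, 34 and 48. In CPM the means ± SD (n = 3) were 0.177 ± 0.110, 1.44 ± 0.866 and 0.884 ± 0.454. All 6 ovariectomized libraries exceeded all Sham libraries, but the spread within OVX was 4.33-fold from lowest to highest. The log2FC was 2.99 ± 0.725 in OVX vs. Sham (edgeR, adjusted p = 0.149), 2.29 ± 0.723 in AS-IV vs. Sham (adjusted p = 0.167) and -0.70 ± 0.638 in AS-IV vs. OVX (adjusted p = 0.942). With so few Sham reads, the size of these folds is loosely fixed.

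Angptl4, which fasting, PPAR signalling and hypoxia induce, had 16.1, 21.3 and 25.4 CPM for Sham, 13.4, 31.2 and 36.4 for OVX and, with AS-IV, 21.1, 28.0 and 29.6. OVX held both the lowest and the highest of the 9 values. The log2FC in OVX vs. Sham was 0.37 ± 0.329 (edgeR, adjusted p = 0.581).

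Rbp4, the retinol carrier, was a DEG in no comparison, although its OVX libraries were all above Sham. Its CPM values read 17.3, 10.1 and 16.9 for Sham, 19.0, 31.8 and 24.6 for OVX and, with AS-IV, 15.1, 37.1 and 34.8. Replicate 1 of AS-IV fell inside the Sham range. The log2FC was 0.77 ± 0.347 in OVX vs. Sham (edgeR, adjusted p = 0.312) and 0.97 ± 0.348 in AS-IV vs. Sham (adjusted p = 0.206), just short of the fold required. It became a DEG when Sham replicate 1, Sham replicate 3 or AS-IV replicate 1 was left out, with 1.11, 1.08 and 1.28.

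Nampt and Apln, which many cell types express, showed no ordering of the groups. Nampt had 71.4, 72.1 and 55.1 CPM in Sham and was nearly constant in OVX at 57.1, 54.6 and 56.2. AS-IV spread over 96.3, 77.7 and 47.6 CPM, the highest and the lowest of the 9 libraries. Its log2FC was -0.24 ± 0.221 in OVX vs. Sham (edgeR, adjusted p = 0.587) and 0.40 ± 0.221 in AS-IV vs. OVX (adjusted p = 0.859). Apln averaged 3.42 ± 1.30, 3.97 ± 0.669 and 3.72 ± 1.13 CPM (SD, n = 3) in Sham, OVX and AS-IV. Its 9 values lay between 2.34 and 4.86 CPM, and both ends of that range were Sham libraries.

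In OVX vs. Sham, DEGs made up 3.11% of the 16874 genes tested, and DEGs that were higher 1.08%. Of the 8 members other than Lep, 3 were DEGs (37.5%), all higher: Adipoq, Retn and Angptl8. Non-overlapping groups were found in 4 of the 8, the same genes and Rbp4, against 23.3% of all genes. The median log2FC of the 8 was 0.57, and that of all genes -0.01. In AS-IV vs. Sham, 3.15% of genes were DEGs and 1.11% were higher DEGs, while 3 of the 8 members were DEGs, again Adipoq, Retn and Angptl8. The same 3 members had non-overlapping groups, against 19.9% of all genes. Both comparisons use the same Sham libraries, so the second is no independent repeat of the first. With the adipocyte marker level as a covariate, Retn was the only one of the 3 that stayed a DEG in either comparison (log2FC 2.16 in OVX vs. Sham), while Adipoq had 0.82 and Angptl8 2.06 in OVX vs. Sham.

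In AS-IV vs. OVX, 0 of the 8 members were DEGs, where 0.83% of all genes were, and 0 had non-overlapping groups, where 12.7% of all genes did. Their median log2FC was 0.14. No adjusted p over all genes fell below 0.05 in any of the 3 comparisons with edgeR, so each DEG named here rests on its unadjusted p. At an unadjusted p below 0.05 edgeR listed 2775 genes in OVX vs. Sham, 1089 in AS-IV vs. OVX and 2978 in AS-IV vs. Sham. DESeq2 gave an adjusted p below 0.05 to 790, 27 and 951 genes.

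**Figure D2:**
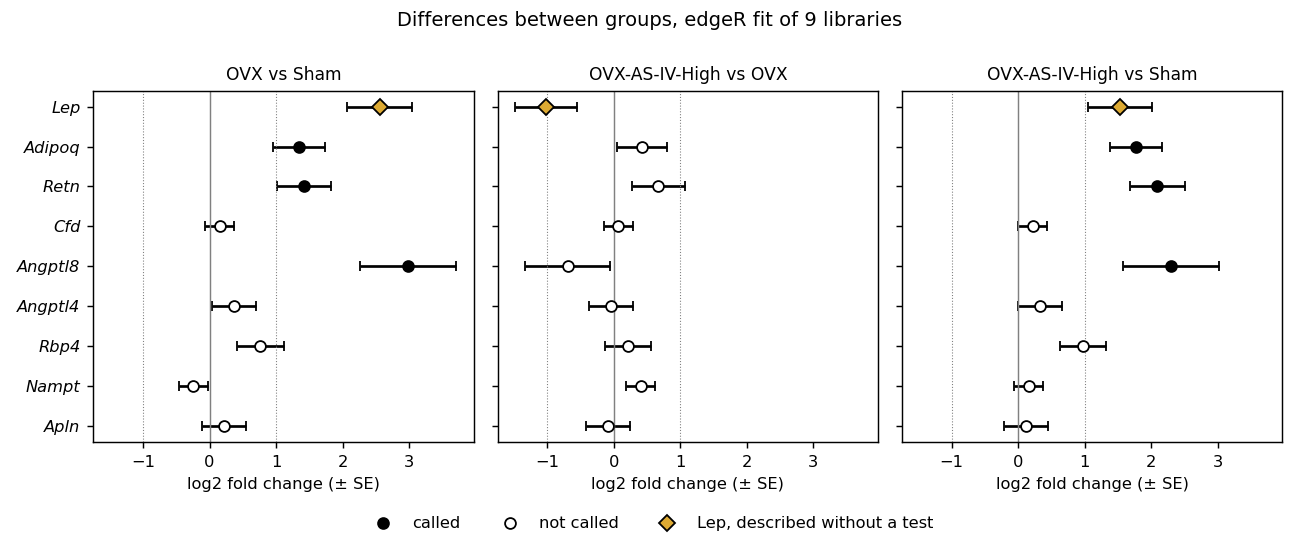
Fitted log2FC (x axis, whiskers ± SE) of the 9 members (y axis) in the 3 comparisons, with all 9 libraries in the fit. Filled circles are DEGs, open circles are not, the diamond is Lep, and dotted lines mark a log2FC of -1 and 1; Adipoq, Retn and Angptl8 are filled in both comparisons with Sham and no member is filled in AS-IV vs. OVX.

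Levels between genes were compared as FPKM, which divides by gene length. Cfd was highest in each group, with median FPKM of 192.2 in Sham, 265.7 in OVX and 278.4 in AS-IV, apart from the next gene in all 3. In Sham, Retn (21.4), Adipoq (21.1), Rbp4 (17.9) and Nampt (15.9) followed with overlapping neighbours. Angptl4 (7.45) was apart from Nampt above and from Apln below. Apln (0.737) and Lep (0.586) overlapped, and Angptl8 (0.223) was last.

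In OVX, Adipoq (72.3 FPKM) and Retn (57.4) overlapped at the second and the third place. Rbp4 (26.3) was apart from both Retn and Nampt. Below it Nampt (12.7), Angptl4 (11.5), Lep (1.99), Angptl8 (1.82) and Apln (0.975) each overlapped the next. In AS-IV the order of medians was the same, with Lep (1.59), Angptl8 (1.04) and Apln (0.945) again overlapping at the lower end. By its median Lep thus stood below Apln in Sham and above it in both ovariectomized groups, and of these only in OVX were the ranges of Lep (1.68 to 6.05) and Apln (0.827 to 1.19) apart.

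Set beside Lep library by library, the other hormones did not keep a fixed ratio to it. The ratio of Cfd to Lep CPM was 117.2, 76.8 and 133.3 for Sham, 26.7, 12.2 and 40.3 for OVX and, with AS-IV, 48.8, 45.5 and 37.1. Angptl4 to Lep likewise separated Sham (13.0, 9.96 and 13.0) from OVX (2.06, 1.61 and 6.60) and AS-IV (5.47, 5.30 and 4.72). Cfd and Angptl4 themselves overlapped between groups in CPM, so the separation of these ratios restates the level of Lep, their divisor. By contrast, Adipoq to Lep overlapped across all groups, at 26.3, 13.3 and 38.8 for Sham, 16.0, 5.69 and 24.1 for OVX and, with AS-IV, 23.7, 35.6 and 29.5. Retn to Lep had 16.2, 6.15 and 6.42, then 5.26, 2.88 and 5.93, then 29.1, 7.84 and 6.66. Its Sham and AS-IV ratios overlapped, and every OVX ratio lay below those of both groups. In OVX replicate 2, where Lep as the divisor was highest, each of these 4 ratios took its lowest value.

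As a description, the log2 CPM of Lep and Angptl8 had r = 0.79 and rho = 0.90 over the 9 libraries, that of Lep and Adipoq r = 0.69 and rho = 0.65, and that of Lep and Retn r = 0.62 and rho = 0.62. These libraries share 3 groups, and Lep separates Sham from the rest. After the group means were taken out, r was 0.24 for Angptl8, 0.18 for Adipoq and 0.00 for Retn. Within the 6 ovariectomized libraries r was 0.58, -0.11 and -0.14. Leaving out OVX replicate 2 and Sham replicate 1, the libraries farthest from the median of Lep, gave pooled r of 0.91, 0.79 and 0.62. For Nampt the pooled r was -0.37. The library with the most Lep (OVX replicate 2) had rank 4 of 9 for Adipoq and rank 2 for Retn and for Angptl8.

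**Figure D3:**
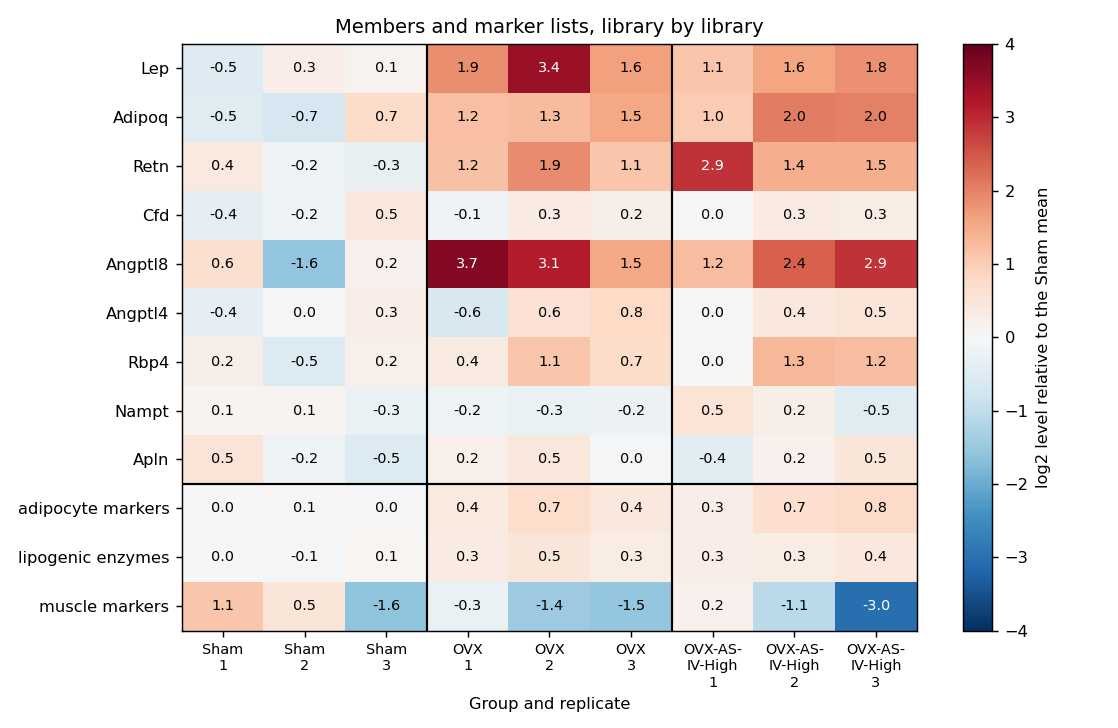
Log2 level of each member in each library relative to the mean of the Sham libraries (rows above the line), and the mean log2 CPM of 3 marker lists on the same scale (rows below it), with libraries as columns by group. Red is higher and blue lower than Sham; Lep, Adipoq, Retn and Angptl8 are red in all 6 ovariectomized libraries, the adipocyte list shifts by less, and the muscle list varies most from library to library.

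Some mature adipocyte markers were higher along with the hormones. In OVX vs. Sham 4 of 20 were DEGs and all 4 were higher, with a list median log2FC of 0.57, and the count was 1 without OVX replicate 2, 2 without Sham replicate 2 and 1 with the muscle score (the mean log2 level of muscle markers) as a covariate. They included Plin1, the coat protein of the lipid droplet (1.12 ± 0.284), Aqp7, the glycerol channel of fat cells (1.33 ± 0.319), and Cidea, which enlarges lipid droplets (1.02 ± 0.255). Of all genes tested, 3.11% were DEGs in this comparison. Of the 20 markers 15 had a log2FC above 0, and those below 0 included Pnpla2 (-0.28 ± 0.174). Plin1 had 31.8, 27.5 and 42.1 CPM for Sham, 53.7, 85.7 and 80.8 for OVX and, with AS-IV, 48.7, 93.6 and 97.2. Summed over the list, Sham libraries held 713.4 to 748.3 CPM, OVX libraries 828.4 to 1125 and AS-IV libraries 767.4 to 1044. In AS-IV vs. Sham, where 3.15% of all genes were DEGs, 8 of 20 were higher DEGs and 16 had a log2FC above 0. The list median was 0.58, with 5 DEGs without Sham replicate 2 and 5 without AS-IV replicate 3. The same count was 4 with the muscle score, 3 and 4 on log2(FPKM + 1) and log2(FPKM + 0.1), and 2 with the adipocyte marker level as a covariate. In AS-IV vs. OVX the only DEG of the list was Pck1, which supplies glycerol for fat storage (1.19 ± 0.467, edgeR adjusted p = 0.728), and the list median was 0.04. Pck1 was no DEG without OVX replicate 1 or 3 or AS-IV replicate 2 or 3. In bulk RNA, more adipocytes and more RNA per adipocyte cannot be told apart.

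Each member was therefore also divided by the geometric mean CPM of these 20 markers in the same library. The quotient for Lep was 0.0757, 0.125 and 0.122 for Sham, 0.303, 0.723 and 0.252 for OVX and, with AS-IV, 0.195, 0.2 and 0.223. The 3 groups did not overlap, with AS-IV between Sham and OVX and nearly constant within itself. In CPM the AS-IV and OVX ranges of Lep overlapped. Because Lep was chosen by its log2FC in these same libraries, this order is a description and adds no support. The log2 difference was 1.86 ± 0.525 (SE) in OVX vs. Sham and -0.89 ± 0.472 in AS-IV vs. OVX, or -0.43 without OVX replicate 2. Between AS-IV and Sham it was 0.96 ± 0.244. With Plin1 alone as the divisor the differences were 1.24 in OVX vs. Sham, -0.90 in AS-IV vs. OVX and 0.35 in AS-IV vs. Sham, and the groups overlapped in each comparison.

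Retn and Angptl8 also lay above Sham in every OVX library per unit of adipocyte marker. In OVX vs. Sham the log2 quotient differed by 0.91 ± 0.264 for Retn and by 2.55 ± 0.940 for Angptl8, both with a two-sided exact permutation p of 0.1, the smallest that 3 against 3 libraries allow. For Adipoq the difference was 0.98 ± 0.494 (exact permutation p = 0.2), and Sham replicate 3 overlapped OVX. Nampt lay on the other side, with a difference of -0.73 ± 0.161 (exact permutation p = 0.1) and every OVX library below every Sham library. In CPM, however, its groups overlapped, while the marker mean was 15.9 to 17.1 CPM in Sham and 21.4 to 26.8 in OVX. The quotient of a member of unchanged level is thus lowered in OVX by the divisor. The quotients of Cfd, Angptl4, Rbp4 and Apln overlapped. With Plin1 as the divisor, Nampt kept non-overlapping groups (-1.34) and Retn and Angptl8 did not, while Cfd (-0.93) and Angptl4 (-0.85) became lower in every OVX library. Cfd and Angptl4 overlapped in CPM, and Plin1 was higher in every OVX library than in Sham, so these differences carry that of the divisor.

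**Figure D4:**
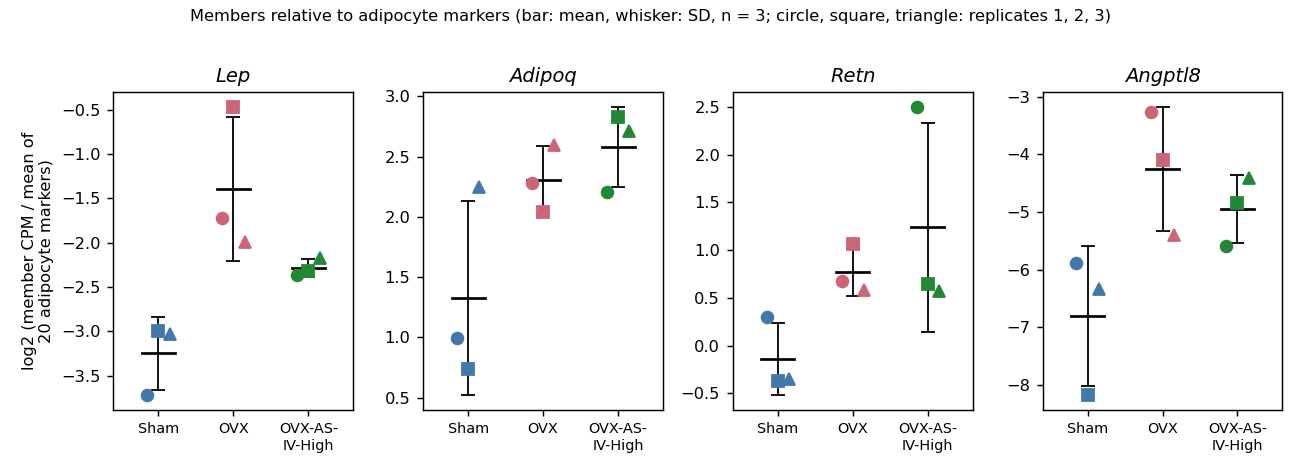
Log2 of the CPM of Lep, Adipoq, Retn and Angptl8 divided by the geometric mean CPM of 20 adipocyte markers (y axis, one scale per gene) in Sham, OVX and AS-IV (x axis). Symbols are libraries, bars means and whiskers SD of 3 libraries. With this divisor the 3 groups of Lep do not overlap, with means of -3.25, -1.39 and -2.28, whereas with Plin1 alone as the divisor they do.

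Other cells in the bone samples varied as well. Summed over 15 skeletal muscle markers, CPM ran from 2320 to 12760 in Sham, from 2317 to 4703 in OVX and from 819.1 to 6467 in AS-IV, with 0 of 15 DEGs and a median log2FC of -1.10 in OVX vs. Sham. Sham replicate 3, the Sham library with the least muscle RNA, had the highest Adipoq, Cfd and Angptl4 of its group. It also had the lowest Retn, Nampt and Apln of that group. With the muscle score as a covariate in edgeR, log2FC in OVX vs. Sham was 1.06 for Adipoq, 1.77 for Retn and 2.87 for Angptl8, so all 3 remained DEGs. Liver also makes Rbp4 and Angptl8. Of 10 hepatocyte markers, transferrin (Tf) had 55771 to 86830 reads a library, Serpina1 125 to 977, Apoa1 17 to 76 and Ahsg 2 to 21, while Cyp2e1 had at most 14, Alb at most 11, Ttr at most 4, Apob at most 2 and Apoa2 and Fgb at most 1 each. The part of liver RNA in the values of the members was not tested. Among brown adipocyte markers Ucp1, Zic1 and Lhx8 had at most 1, 1 and 2 reads, and the other 6 found were present, with Cidea at 128 to 398 reads, Dio2 at 70 to 207, Cpt1b at 223 to 1396, Cox8b at 71 to 1253, Ebf2 at 7 to 164 and Cox7a1 at 13 to 27. Of 12 neutrophil markers tested 0 were DEGs in any comparison, but 10 had a log2FC above 0 in OVX vs. Sham (median 0.24) and 12 in AS-IV vs. Sham (median 0.38). In AS-IV vs. Sham 6 of them had every AS-IV library above every Sham library, where 19.9% of all genes had non-overlapping groups. Of 11 endothelial markers, 7 had every AS-IV library below every Sham library. The summed level of the neutrophil markers was 13020 to 18000 CPM in Sham, 15800 to 20840 in OVX and 17930 to 23320 in AS-IV. The highest was in AS-IV replicate 1, the library with the highest Retn, and the part of neutrophil RNA in these values was not tested.

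Enzymes of fatty acid synthesis gave 2 higher and 1 lower DEG of 13 in OVX vs. Sham. Scd, which desaturates stearate, rose by 2.03 ± 0.726 (edgeR, adjusted p = 0.223), from 7.91, 4.90 and 34.9 CPM in Sham to 54.6, 45.5 and 94.8 in OVX, with 40.3, 126.2 and 146.4 in AS-IV. Thrsp, a lipogenic regulator, rose by 1.31 ± 0.378 (edgeR, adjusted p = 0.169). Acacb, the mitochondrial acetyl-CoA carboxylase that muscle also expresses, fell by 1.33 (edgeR, adjusted p = 0.303). Scd and Thrsp were also the 2 DEGs of the list in AS-IV vs. Sham, at 2.71 ± 0.743 and 1.11 ± 0.376, and there were 0 in AS-IV vs. OVX. The Sham libraries themselves spread from 4.90 to 34.9 CPM for Scd, and without Sham replicate 1, Sham replicate 2, OVX replicate 2 or OVX replicate 3 the list held 1 DEG in OVX vs. Sham. In AS-IV vs. Sham it held 1 without Sham replicate 1, Sham replicate 2 or AS-IV replicate 3. The muscle score as a covariate also left 1 DEG in either comparison with Sham, and the adipocyte marker level left 0.

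The receptors of these hormones held no DEG with all libraries. Of 20 receptors and partners tested, 0 were DEGs in any comparison, with median log2FC of -0.07 in OVX vs. Sham, 0.01 in AS-IV vs. OVX and 0.04 in AS-IV vs. Sham. There was 1 DEG in AS-IV vs. Sham without Sham replicate 3, AS-IV replicate 1 or AS-IV replicate 2. Lepr, whose row does not separate the receptor's isoforms, had 89.2, 90.6 and 112.9 CPM for Sham, 82.9, 66.1 and 91.7 for OVX and, with AS-IV, 121.4, 137.3 and 125.3. All AS-IV libraries were thus above all others. The log2FC in AS-IV vs. OVX was 0.67 ± 0.140 (edgeR, adjusted p = 0.652), below the fold required of a DEG, and in OVX vs. Sham it was -0.28 ± 0.140 (adjusted p = 0.341). The adiponectin receptor Adipor1 averaged 372.6, 308.3 and 343.7 CPM in Sham, OVX and AS-IV, and the resistin-binding protein Cap1 610.4, 637.8 and 628.7. Of 14 genes of leptin signalling, 0 were DEGs in any comparison. Stat3, the main transcription factor downstream of Lepr, averaged 124.9, 131.3 and 123.5 CPM.

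Among further adipokines, 0 were higher DEGs in OVX vs. Sham. Of 22 tested, C1qtnf2, an adiponectin paralog, was the only DEG in OVX vs. Sham and was lower (-1.43 ± 0.302, edgeR adjusted p = 0.138), with 11.2, 6.25 and 7.02 CPM in Sham against 4.03, 2.66 and 2.41 in OVX. This count was 3 without Sham replicate 3, 4 without OVX replicate 1, 2 without OVX replicate 2 and 3 without OVX replicate 3. It was 4 with the replicate block, 3 with no filter on low counts, and 2 with DESeq2, with limma on either FPKM scale and with the muscle score. In AS-IV vs. Sham 3 were lower DEGs and 0 were higher. They included C1qtnf2 (-1.36 ± 0.301) and adrenomedullin, Adm (-1.53 ± 0.388). There were 0 DEGs of this list in AS-IV vs. OVX with all libraries, 3 without OVX replicate 1 and 2 without OVX replicate 3.

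The genes most like Lep across the 9 libraries, by r of log2 CPM among 14471 genes with a mean of at least 1 CPM, were Birc3 (0.96), Btg1 (0.95), Gpr171 (0.94), Jak1 (0.94) and Fgd2 (0.94). After the group means were taken out, their r in this order was 0.88, 0.82, 0.82, 0.76 and 0.78. Birc3, an inhibitor of apoptosis protein, averaged 19.2, 31.9 and 25.3 CPM in Sham, OVX and AS-IV. Of the 20 adipocyte markers 16 had a positive r with Lep, the median was 0.57, and the median over all genes was 0.01. The r of these markers is pooled over the groups, and Lep itself separates Sham from the rest. Aqp7 (0.91) was the closest adipocyte marker, at place 27 of the 14471 genes.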

How the data were processed

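Bone RNA of 9 rats, 3 independent animals a group, was enriched for poly(A) RNA and sequenced. The authors filtered reads with NGS QC Toolkit, used Tophat and Bowtie2 for alignment, and eXpress for the level of each gene. The labels name build mRatBN7.2. The files deposited hold raw counts as whole numbers, and FPKM, for 23026 genes. Both tables implied a constant gene length within 1% for all 11928 genes that reached 100 counts in every library. Totals ran from 34874880 to 37298250 counts.

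Counts were tested with edgeR 4.0.16 (R 4.3.3; quasi-likelihood test, TMM, filterByExpr, minimum count of 10, 9 libraries in 1 fit, 16874 genes, common BCV 0.256). DEGs had an unadjusted p below 0.05 and an absolute log2FC above 1. Adjusted p-values are Benjamini-Hochberg over all genes tested. The old DESeq package of the study was not used. SE of log2FC is the absolute value divided by the root of F. Log2 CPM used a prior count of 2. Alternatives were DESeq2 1.42.0, RLE factors, no filter, limma 3.58.1 on log2(FPKM + 1) and on log2(FPKM + 0.1), a replicate block, adipocyte or muscle score as a covariate, fits of only the 2 groups compared, and each library left out. The test was run on simulated counts with known changes before use, with 200 of 16874 genes changed 3-fold in OVX vs. Sham. By the DEG thresholds edgeR called 189 of the changed genes and also 217 unchanged genes.

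Named genes were the 9 members, in each gene list the DEGs (up to 6, by smallest p) and up to 4 more of highest level, and the 5 genes most like Lep; the values of 2 list genes are not reported here. The members and lists were chosen with earlier results of these data known. Whether replicate numbers pair libraries was checked by correlating deviations from group means. OVX and OVX-AS-IV-High gave 0.31, 0.158 and 0.13 and were treated as paired in an alternative fit. Sham and OVX gave 0.2, -0.161 and 0.253, and Sham and OVX-AS-IV-High gave 0.314, -0.158 and 0.435. No pair of libraries within a group had identical counts within sampling noise, and pairs between groups were not checked. Promoter windows came from RefSeq (GRCr8).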

Additional observations from a re-analysis of the deposited data

How the results depend on the processing

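The counts of DEGs among the 8 members other than Lep, 3 in OVX vs. Sham, 0 in AS-IV vs. OVX and 3 in AS-IV vs. Sham, were the same with all 9 libraries or only the groups compared under each alternative but 2: with the adipocyte score as a covariate 1 member (Retn) was left in each comparison with Sham, and on log2(FPKM + 1) 2 members were left in AS-IV vs. Sham. That score itself differs between Sham and the ovariectomized groups, so group and score cannot be told apart there. Leaving out each library gave 3 to 3, 0 to 0 and 3 to 4 DEGs. Under TPM 2 places in the order of levels changed. With the replicate block the counts were 3, 0 and 3, and Lep had a log2FC of 2.43 in OVX vs. Sham and -0.86 in AS-IV vs. OVX. The block changed the call of no member.

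Lep had 1.11 in OVX vs. Sham and 0.04 in AS-IV vs. Sham with the adipocyte score, and 1.33 in OVX vs. Sham on log2(FPKM + 1), a scale that understates changes of low genes. Angptl8 in AS-IV vs. Sham was no DEG on log2(FPKM + 1) (0.71) or with the adipocyte score (1.08). Small log2FC changed sign. With the adipocyte score in OVX vs. Sham they were -0.15 (Cfd), -0.16 (Angptl4), -0.35 (Rbp4), 0.26 (Nampt) and -0.55 (Apln), in AS-IV vs. OVX -0.030 (Rbp4), and in AS-IV vs. Sham -0.13 (Cfd), -0.28 (Angptl4), -0.38 (Rbp4) and -0.80 (Apln). With the muscle score Cfd had -0.034 in OVX vs. Sham and -0.0023 in AS-IV vs. Sham, and Nampt 0.012 in OVX vs. Sham. Angptl4 in AS-IV vs. OVX was 0.018 on log2(FPKM + 1), 0.032 on log2(FPKM + 0.1), 0.048 with the replicate block and 0.066 with the block and only these groups, a fit added after the data were seen. Divided by Plin1 alone, Rbp4 differed by -0.34 in OVX vs. Sham and -0.29 in AS-IV vs. Sham. The cause was not tested.

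With each library left out in turn, log2FC ran over these ranges where a sign changed. Cfd ran from -0.012 to 0.45 in OVX vs. Sham and from -0.059 to 0.17 in AS-IV vs. OVX. In the latter comparison Angptl4 ran from -0.36 to 0.24, Rbp4 from -0.0087 to 0.52 and Apln from -0.31 to 0.12. In AS-IV vs. Sham Nampt ran from -0.079 to 0.40 and Apln from -0.10 to 0.47. Relative to adipocyte markers, AS-IV vs. OVX ran from -0.16 to 0.80 for Retn, -0.086 to 0.077 for Cfd, -0.40 to 0.31 for Angptl4, -0.12 to 0.32 for Rbp4 and -0.11 to 0.65 for Nampt. In OVX vs. Sham the same measure ran from -0.56 to 0.15 for Angptl4, -0.0063 to 0.42 for Rbp4 and -0.45 to 0.061 for Apln.

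DEG counts of the lists moved more. Mature adipocyte markers in OVX vs. Sham ranged from 1, without OVX replicate 2, to 6, without OVX replicate 1.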

Other observations

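Targets of hypoxia and PPAR signalling, which also control Angptl4, held only lower DEGs, all in comparisons of the AS-IV group. Of 16 tested, 2 were lower DEGs in AS-IV vs. OVX, where 0.83% of all genes were DEGs. They included the mitochondrial carrier Ucp3 (log2FC -1.09 ± 0.470, edgeR adjusted p = 0.769). In AS-IV vs. Sham, where 3.15% of all genes were DEGs, 3 of the list were lower DEGs. Among them were Pdk4 (-1.62 ± 0.601, edgeR adjusted p = 0.218) and Adm (-1.53 ± 0.388, edgeR adjusted p = 0.121). No member of the list was a DEG in OVX vs. Sham. The list medians were -0.09, -0.19 and -0.38 in OVX vs. Sham, AS-IV vs. OVX and AS-IV vs. Sham. Ucp3 and Pdk4 are abundant in muscle, whose markers varied between libraries, and the part of muscle in these values was not tested.

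Regulators of adipocyte differentiation held 0 DEGs of 15 in both comparisons with OVX and 1 in AS-IV vs. Sham, Prdm16 (-1.30 ± 0.513), at a mean of 0.473 CPM. Of the 15, only 3 had a log2FC above 0 in OVX vs. Sham, and the list median was -0.16. Cebpa, among these 3, averaged 100.4 CPM in Sham, 121.9 in OVX and 125.9 in AS-IV. Every OVX library exceeded every Sham library for Cebpa (log2FC 0.28 ± 0.094), and 23.3% of all genes had non-overlapping groups in this comparison. Among lists of other cells, neutrophil, macrophage, endothelial, osteoclast, hepatocyte and erythroid markers had 0 DEGs in each comparison with all libraries. The osteoblast list had 1, osteocalcin (Bglap), higher in OVX vs. Sham (1.21 ± 0.391). List medians in OVX vs. Sham and AS-IV vs. Sham were 0.24 and 0.38 for neutrophil, -0.31 and -0.46 for endothelial, 0.06 and -0.10 for macrophage, 0.38 and 0.36 for osteoclast, -0.26 and -0.40 for hepatocyte and -0.21 and -0.15 for erythroid markers.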
